A study of Drosophila melanogaster with 9 samples.

Results

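Gene expression in the dissected brain of middle-aged Drosophila melanogaster, 30 days old, was compared with that of young flies, 3 days old. The comparison used every Affymetrix Drosophila 2.0 array that the labels give as 3d or 30d, 3 arrays of each age and 6 of the 9 arrays in the series. Both groups were naturally ageing flies kept at 25 °C on a cornmeal, molasses and agar food with dry yeast, and no genetic alteration or drug is named for either. Brain RNA was extracted with Trizol, then amplified and biotin labelled with a cDNA kit before hybridisation. The labels do not give strain, sex or the number of brains per array, and nothing states that replicates came from separate batches of flies. The p-values therefore cover array-to-array spread alone, which may be technical.

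Of 18952 probe sets on the array, 13647 carried the symbol of a single gene and were tested. They stand for 11982 genes, and a gene is described here by the probe set with the highest mean signal over the 6 arrays. Levels are log2(signal + 1), differences are the 30d mean minus the 3d mean on that scale ± SE from limma, and group levels are means ± SD with n = 3 arrays. A gene or probe set was called when limma's Benjamini-Hochberg adjusted p, taken over all probe sets tested, was below 0.05, and the words rose and fell are kept for such calls. In whole-brain RNA, fewer cells of a type and less RNA per cell cannot be told apart.

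The adult fly brain consists mostly of neurons, with several classes of glia that wrap neuronal cell bodies, fill the neuropil and form the barrier to the haemolymph. The first days after eclosion are a period of maturation in which pigments and cuticle are completed and circuits are still refined, and by the middle of life the fly has full adult behaviour. Neurons rely on mitochondrial oxidative phosphorylation, in which complexes I to IV of the respiratory chain pass on electrons, all but complex II pump protons, and complex V, the ATP synthase, uses the gradient. Most subunits are encoded in the nucleus, and many have a second gene copy in flies that is mainly transcribed in the male germ line.

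The brain label was checked against 12 pan-neuronal and transmitter genes. The RNA-binding protein gene elav lay at the 98.6 percentile of all gene levels and differed by 0.07 between the ages (limma adjusted p = 0.568). Gad1, which makes GABA, and VAChT, the vesicular acetylcholine transporter, lay at the 99.6 and 99 percentile. VGlut was the only dim marker, at the 25.1 percentile. The 12 signals summed to 11960 to 12352 on the 3d arrays and 9389 to 10482 on the 30d arrays, and 4 of the 12 fell while none rose, namely Gad1 by 0.58, VAChT by 0.53, ChAT by 0.45 and nSyb by 0.65. With arrays centred within bins of like signal, Gad1 and VAChT were still lower, ChAT and nSyb were not called, and elav was called higher.

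One array stood apart. For the GAPDH control, the 3′ probe set exceeded the 5′ one on the log2 scale by 5.032 on 3d replicate 1 against 1.582 and 2.033 on the other 3d arrays and 1.971 to 2.066 on the 30d arrays, and the eIF-4a control showed 6.764 against 2.572 to 3.232. On the second principal component of the 6 arrays, which held 24% of the variance, 3d replicate 1 lay at 28.4 and the others between -13.6 and -0.6, whereas the first component, with 66.9%, separated the ages. The median SD of a gene within an age was 0.251 at 3d and 0.114 at 30d. The trimmed mean signal was set to 150.002 on every array, while the median signal was 60.65 to 67.59 at 3d and 76.14 to 78.27 at 30d. Counts for most gene groups are therefore also given without 3d replicate 1.

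Of the 13647 probe sets, 3291 rose (24.1%) and 2016 fell (14.8%) from 3d to 30d. Over genes, 2823 rose (23.6%) and 1949 fell (16.3%). The direction depended on the level: the median difference was 0.55 in the dimmest of 10 equal bins of genes, 0.31 in the fourth, 0.08 in the sixth and -0.19 in the brightest. The median over all genes was 0.17. Among the 4011 genes below the 40th percentile of all values at both ages, 1065 rose and 86 fell, whereas among the 5541 above the 60th percentile at the higher age 996 rose and 1574 fell. A second fit therefore centred each array within 10 bins of genes of equal signal, so that a gene is set against others of like level. That fit called 1609 genes higher (13.4%) and 1754 lower (14.6%), and the share of called genes that were higher went from 59.2% to 47.8%. Both fits called 1359 genes higher and 1352 lower, 2061 were called only as deposited, and no gene was called in opposite directions.

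Without 3d replicate 1, 3988 genes rose and 3150 fell in the fit as deposited. Without 3d replicate 3 the counts were 1540 and 1138. They were 1267 and 1056 without 30d replicate 1, 1014 and 956 without 30d replicate 2, and 1049 and 885 without 30d replicate 3. Without 3d replicate 2, 2926 rose and 1827 fell. In 4005 genes (33.4%) all 30d arrays exceeded all 3d arrays, and in 2607 genes (21.8%) they all lay below. Among genes called in both fits, 160 were at least 2-fold higher and 176 at least 2-fold lower, and only 2 in each direction reached 4-fold.

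**Figure D1:**
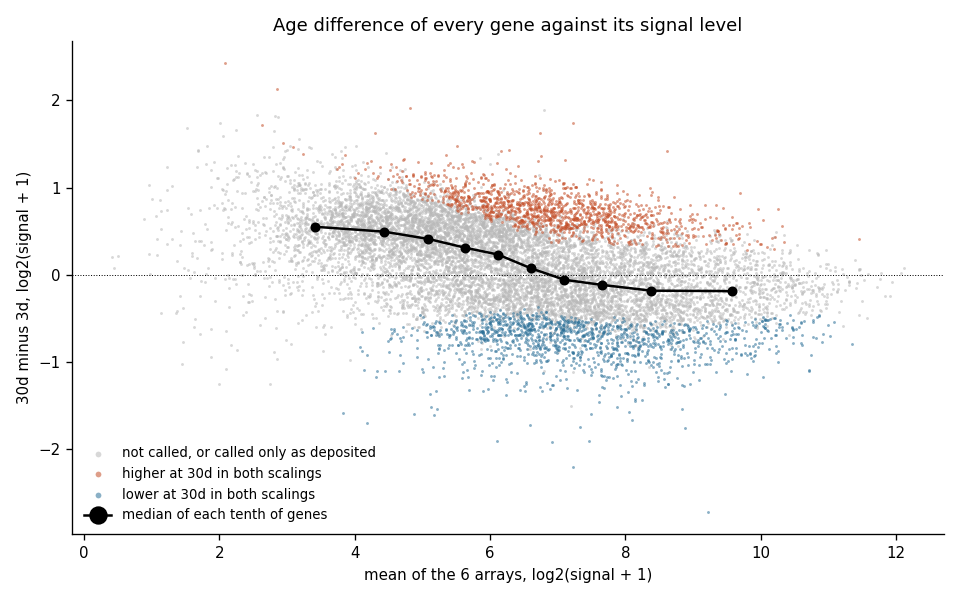
Age difference of each of the 11982 genes (30d minus 3d, vertical axis, log2) against its mean level over the 6 arrays (horizontal axis, log2(signal + 1)). Coloured points are the 1359 genes higher and 1352 lower in both fits, grey points are all others, and the black line joins the medians of the 10 signal bins, which run from 0.55 at the dim end to -0.19 at the bright end.

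Among genes above the 60th percentile at the higher age, the largest rise was that of Tsp42Ed, a tetraspanin, a family of membrane proteins that organise other proteins in the cell surface. It read 6.07, 6.52 and 6.50 on the 3d arrays and 7.99, 8.29 and 8.02 on the 30d arrays, so no arrays of the ages overlapped. The difference was 1.74 ± 0.17, a 3.33-fold rise (limma adjusted p = 0.000843). PGRP-SB1, a secreted peptidoglycan-recognition amidase that responds to bacteria, read 6.06, 5.77 and 5.95 at 3d and 6.63, 7.60 and 8.41 at 30d. Its 30d arrays were spread more widely than its 3d arrays but all lay above them (1.62 ± 0.35, limma adjusted p = 0.00847). Gnmt, glycine N-methyltransferase, which uses up the methyl donor S-adenosylmethionine, rose from 5.57 to 7.0 (1.43 ± 0.31, limma adjusted p = 0.00853). The 3d arrays were uneven for this gene, with 4.73 on replicate 1 against 5.93 and 6.05. TotC, a secreted Turandot stress peptide, had the same pattern, with 4.71 on 3d replicate 1, 6.06 and 5.60 on the others, and 6.75 to 7.05 at 30d. Cpr72Ec, a chitin-binding cuticle protein, went from 7.29, 8.15 and 8.30 to between 9.29 and 9.40. Arc2, one of a pair of capsid-forming genes related to retrotransposon Gag, read 5.59, 5.96 and 5.81 at 3d and 7.0, 7.22 and 6.87 at 30d (1.24 ± 0.16, limma adjusted p = 0.00203). The gustatory receptor Gr39b, the odorant-binding protein Obp47b and 12 genes known only by CG numbers, among them CG13116, CG13198 and CG32718, made up the rest of the 20 largest rises, with differences down to 1.08.

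The largest falls exceeded the largest rises in size. CG9512 fell from 10.48, 10.58 and 10.69 on the 3d arrays to 8.17, 7.90 and 7.54 on the 30d arrays, a difference of -2.71 ± 0.16 or 6.56-fold (limma adjusted p = 0.000115). CG10560 followed with -2.20 ± 0.17, from 8.13, 8.31 and 8.53 to 6.38, 6.11 and 5.88. Both were clear of overlap by more than 1 log2 unit. The corneal lens protein gene retinin fell from 6.81, 7.16 and 7.18 to 5.20, 5.01 and 5.23 (-1.91 ± 0.16, limma adjusted p = 0.00065). Cpr49Ag, a cuticle protein, fell by 1.90 with an SE of 0.24, from 8.05, 8.58 and 8.6 to 6.87, 5.98 and 6.68. The gene e (ebony) conjugates dopamine and histamine to beta-alanine for cuticle tanning and transmitter recycling. It read 10.21, 9.37 and 9.70 at 3d and 8.05, 7.93 and 8.04 at 30d (-1.76 ± 0.19, limma adjusted p = 0.00111). The gene speck, an arylalkylamine N-acetyltransferase that inactivates dopamine, fell from 8.68, 9.10 and 9.12 to 7.57, 7.40 and 7.63 (-1.43 ± 0.15). Others were wun2, a lipid phosphate phosphatase (-1.91 ± 0.15), vkg, the alpha 2 chain of collagen IV (-1.66 ± 0.14), Pxn, peroxidasin, which cross-links collagen IV (-1.51 ± 0.17), and Cat, catalase (-1.57 ± 0.15). Gycalpha99B, the alpha subunit of the soluble guanylyl cyclase that senses nitric oxide, fell from 9.85, 9.44 and 9.55 to 8.13, 8.05 and 8.03 (-1.54 ± 0.13, limma adjusted p = 0.00065). The list also held the glycolytic enzyme Pgk (-1.45 ± 0.16) and the complex I subunit ND-75 (-1.42 ± 0.23). AP-2mu, a clathrin adaptor subunit (-1.60 ± 0.15), was read by a probe set that can share sequence with other transcripts.

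**Figure D2:**
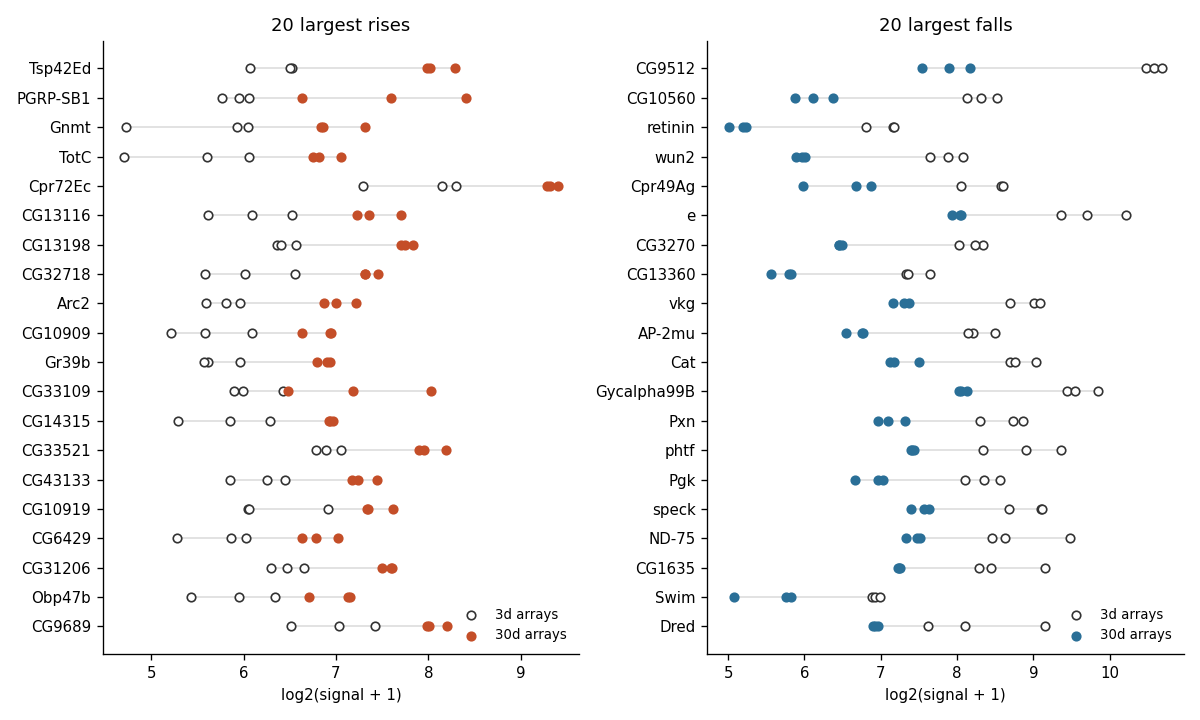
Level on each array, log2(signal + 1), of the 20 largest rises (left) and 20 largest falls (right) among genes called in both fits. Open points are the 3d arrays and filled points the 30d arrays, and for each gene all 3 filled points lie on one side of all 3 open ones, as the choice of genes required.

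Genes were also described in 72 groups by function, family or cell type, which held 2270 genes. Groups are given by how many members were called and by the median difference, also after subtracting the median of genes in the same signal bin. Under the 5 other scalings run, the median kept its sign in 50 groups and changed sign in 22. The deepest falls relative to like genes were in tRNA synthetases, respiratory chain, mitochondrial import and tricarboxylic acid cycle genes, with medians of -0.62 to -0.53. The highest medians were those of olfactory appendage markers (0.53), activity-linked genes (0.37), neural precursor genes (0.32), ecdysone response genes (0.28) and odorant-binding proteins (0.27).

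**Figure D3:**
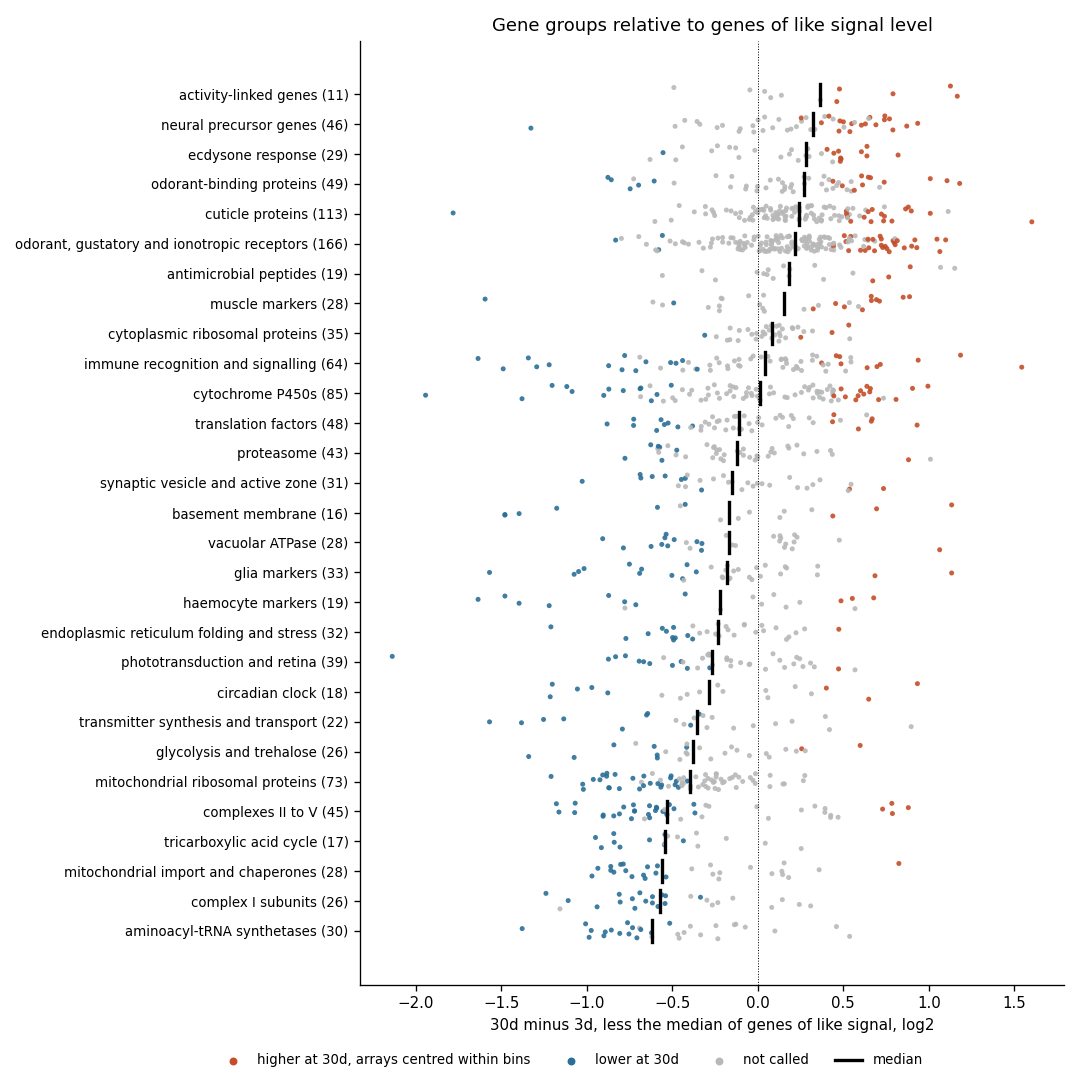
Members of gene groups as the 30d minus 3d difference less the median of genes in the same signal bin (horizontal axis, log2). Each point is a gene, coloured by its call with arrays centred within bins, black bars are group medians and the number of genes is in brackets. Respiratory chain and tricarboxylic acid cycle genes lie mostly left of 0, and neural precursor genes mostly right of it.

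**Figure D4:**
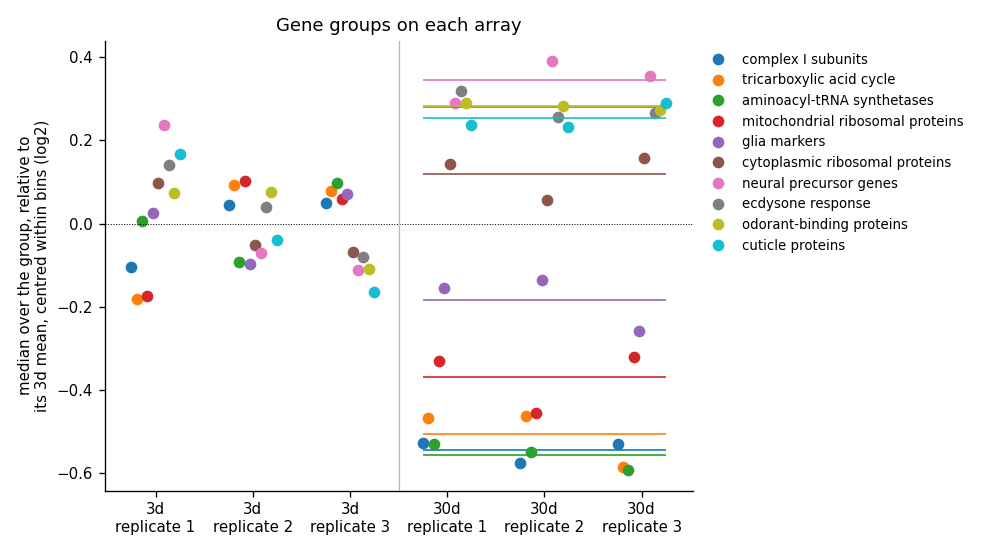
Median of 10 gene groups on each array, relative to the group's 3d mean, with each array centred within signal bins (vertical axis, log2), and lines at the mean of the 30d arrays. Complex I lies between -0.10 and 0.05 on the 3d arrays and between -0.58 and -0.53 on the 30d arrays, whereas neural precursor genes reach 0.24 on 3d replicate 1 and 0.29 to 0.39 at 30d.

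Transcripts for mitochondrial energy production were lower in the middle-aged brain in nearly every part of the pathway. Of 22 measured complex I subunits 19 fell and none rose (median -0.78), and 16 fell against genes of like level, where 31.5% of genes in the same bins fell as deposited. Leaving out 3d replicate 1 also gave 19. All 3 measured complex II subunits fell, 6 of 7 of complex III, all 9 of complex IV and 11 of 12 of complex V. Without 3d replicate 1 these counts were 3, 6, 9 and 12. Medians were -0.81, -0.91, -0.79 and -0.92. The 5 sets were taken from 2 longer lists after values had been seen, and hold the standard subunit genes.

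The signals behind these counts were bright and separated. ND-75, the large iron-sulfur subunit of complex I, read 9.48, 8.46 and 8.63 at 3d and 7.47, 7.33 and 7.51 at 30d. The 3d replicate with poor control ratios was the highest of the 6, and the others still lay above every 30d array. ND-42 was even across replicates, at 10.24, 10.46 and 10.45 against 9.44, 9.36 and 9.37 (-0.99 ± 0.11, limma adjusted p = 0.00102). In complex III the Rieske iron-sulfur protein gene RFeSP fell from 8.36, 8.93 and 8.86 to 7.33, 7.38 and 7.41 (-1.34 ± 0.16), and ox, a small subunit, fell by 1.25 with an SE of 0.12. In the ATP synthase, ATPsyngamma, the rotating stalk, read 10.41, 9.81 and 10.23 at 3d and 8.86, 8.65 and 8.84 at 30d (-1.36 ± 0.16, limma adjusted p = 0.00126), and ATPsynB, a stator subunit, read 9.49, 9.67 and 9.59 against 8.44, 8.28 and 8.27 (-1.25 ± 0.11). In neither gene did arrays of the ages overlap. Named after their values were seen, the exceptions were UQCR-11 of complex III, which rose by 0.60 but did not pass without 3d replicate 3 or 30d replicates 1 and 3, and the catalytic subunit ATPsynbeta, whose difference of 0.21 did not pass.

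The second copies of these genes, marked by L in the symbol, held no gene that fell. Of 14 such copies in complexes III to V 6 rose (42.9%) and none fell (median 0.55, and 0.36 against like genes), beside 26.9% of like genes that rose. In complex I 1 of 4 copies rose (25%) and none fell, close to the 24.1% of like genes that rose. In the fit centred within bins 3 of the 14 were higher. COX4L read 6.90, 7.01 and 6.88 at 3d and 7.73, 7.81 and 7.72 at 30d (0.82 ± 0.13, limma adjusted p = 0.00333), while its standard copy COX4 fell by 1.0. Many of these copies were dim, as 7 of the 14 lay below the 40th percentile at both ages. Of the 14, 9 rose without 3d replicate 1, 2 rose when either 3d replicate 3 or 30d replicate 2 was omitted, 3 without 30d replicate 1 and 1 without 30d replicate 3.

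**Figure D5:**
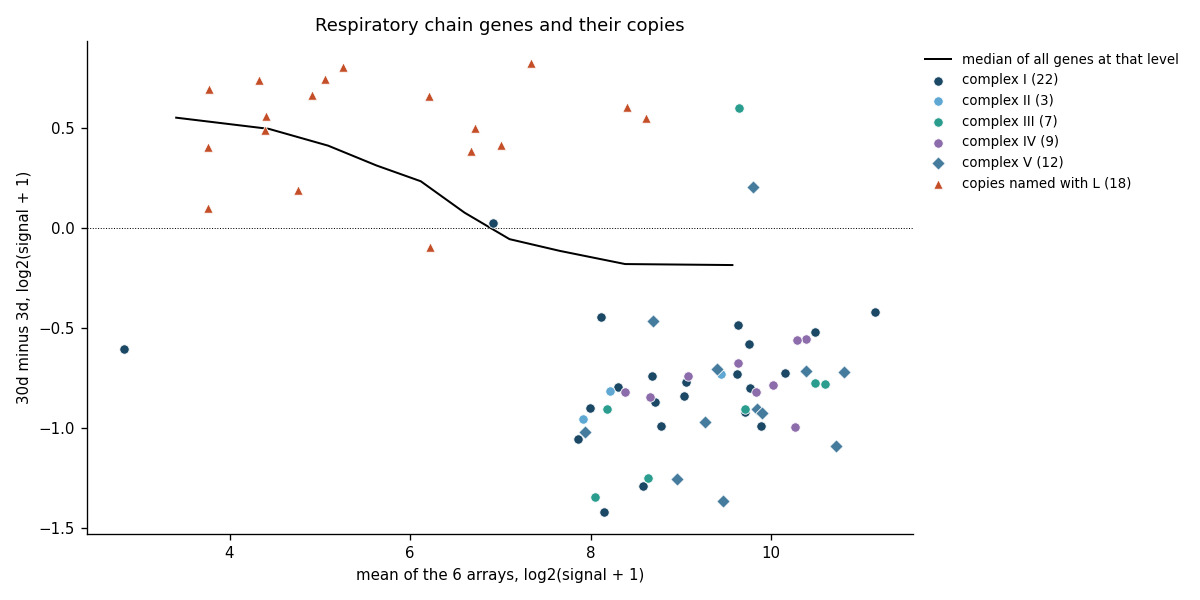
Respiratory chain genes as the 30d minus 3d difference (vertical axis, log2) against mean level over the 6 arrays (horizontal axis, log2(signal + 1)). Points are coloured by complex, copies named with L have their own marker, and the black line is the median of all genes at that level. The lowest standard subunit, ND-75, lies at -1.42, and UQCR-11 lies highest of the standard subunits, at 0.60.

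The same direction held in the tricarboxylic acid cycle, which feeds electrons to the chain. Of 17 genes 14 fell and none rose (median -0.73), beside 33.2% of like genes that fell, and 9 fell when centred. With 3d replicate 1 left out, 15 fell. The aconitase mAcon1 read 10.54, 10.26 and 10.32 at 3d and 9.26, 9.30 and 9.15 at 30d (-1.14 ± 0.11, limma adjusted p = 0.000917). The isocitrate dehydrogenase subunit Idh3g was equally clean, with 9.06, 9.21 and 9.26 against 8.19 on all 3 arrays of 30d. Both genes had less than 0.3 log2 units between replicates of an age. Mitochondrial import and chaperones followed, with 16 of 28 lower and 3 higher (median -0.61), beside 26.2% of like genes lower, and 22 lower without 3d replicate 1. Opa1, which fuses inner membranes, fell by 1.12 with an SE of 0.13, Phb2, a prohibitin, read by a probe set that may be shared, by 1.03 with an SE of 0.14, and Tom7 of the outer membrane translocase by 1.04 with an SE of 0.14. The 3 that rose, Tim17a1, Tim17b2 and Tim13, serve inner membrane import, and only 1 gene of the list rose without 3d replicate 3 or any 30d replicate. Sod2, the manganese superoxide dismutase of the matrix, fell from 8.52, 8.65 and 8.66 to 7.56, 7.54 and 7.32 (-1.14 ± 0.13, limma adjusted p = 0.00125).

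Mitochondrial translation moved with it, less far per gene. Of 73 mitochondrial ribosomal protein genes 35 fell and none rose (median -0.48), beside 24.1% of like genes that fell, and 26 fell when centred. The large subunit had 25 of 44 lower and the small subunit 10 of 27. This count moved with the arrays, as 62 fell without 3d replicate 1. It was 22 and 18 when 3d replicate 2 or 3 was omitted, and 16, 14 and 17 when 30d replicate 1, 2 or 3 was. On 3d replicate 1 the group lay 0.17 below the 3d mean when centred, on the side of the 30d arrays. The gene bonsai, a small-subunit protein, shows this, with 7.63 on that array, 8.26 and 8.19 on the other 3d arrays and 6.97 to 7.07 at 30d (-1.0 ± 0.18). In mRpL28, of the large subunit, it did not, with 6.91, 6.93 and 7.10 against 6.08, 6.05 and 5.97 (-0.94 ± 0.14, limma adjusted p = 0.00293).

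Aminoacyl-tRNA synthetases, which load amino acids onto tRNAs, had the lowest median relative to genes of like level (-0.62), and 15.9% of genes in the same bins fell. Of 30 genes 13 fell and none rose as deposited, and 15 fell when centred. Cytosolic enzymes accounted for 7 of 16 and mitochondrial enzymes for 6 of 14. When 3d replicate 1 was omitted, 17 fell, and without 3d replicate 3 and 30d replicates 1, 2 and 3 the count was 7, 6, 3 and 4. TyrRS read 6.55, 6.54 and 6.81 at 3d and 5.86, 5.86 and 5.85 at 30d (-0.77 ± 0.15, limma adjusted p = 0.00542), and LeuRS-m read 7.23, 6.96 and 7.35 against 6.31, 6.31 and 6.20 (-0.91 ± 0.15).

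Glycolysis was mixed. Of 26 genes of glycolysis and trehalose metabolism 10 fell and 2 rose (median -0.24, and -0.38 against like genes), beside 22.8% of like genes that fell, and 12 fell without 3d replicate 1. None rose without any one of the 30d replicates, and 1 rose without 3d replicate 2 or 3. Pgk, phosphoglycerate kinase, read 8.56, 8.11 and 8.36 at 3d and 6.97, 7.03 and 6.66 at 30d (limma adjusted p = 0.00123). Gapdh1 fell from 9.39, 8.96 and 9.41 to 7.97, 8.03 and 7.99 (-1.26 ± 0.14), and Glyp, the glycogen phosphorylase, by 0.96 with an SE of 0.14. Treh, which splits the blood sugar trehalose, went the other way, from 9.40, 9.44 and 9.52 to 9.95, 9.85 and 9.81 (0.41 ± 0.10, limma adjusted p = 0.0131), read by a probe set that may be shared. Genes for proline, glutamate and amino acid breakdown fell in 9 of 20 cases and rose in 2, beside 19.6% of like genes that fell, with Gdh, glutamate dehydrogenase, at 9.97, 10.05 and 10.16 against 9.03, 9.14 and 9.13 (-0.96 ± 0.10, limma adjusted p = 0.00116). On the arrays other than 3d replicate 1, 10 of these 20 fell. The rises numbered 5 without 3d replicate 2 and 0 without 3d replicate 3 or any 30d replicate, by limma. Ssadh, which clears the GABA breakdown product succinic semialdehyde, fell by 0.82 with an SE of 0.11.

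Among translation factors the subunits of eIF3, the scaffold of initiation, fell in 8 of 13 cases and rose in none (median -0.56), beside 32.2% of like genes that fell. The count was 12 without 3d replicate 1, 5 without 3d replicate 3 and 4 without 30d replicate 3. The gene eIF3l read 9.67, 9.55 and 9.68 at 3d and 8.88, 8.80 and 8.96 at 30d (-0.75 ± 0.11, limma adjusted p = 0.00277). The cap-binding family split: the general factor eIF4E1 fell by 0.57 as deposited on a probe set that may be shared, a call lost when centred and without any array other than 3d replicate 1, and 4 relatives rose in both fits. Of these eIF4E6 read 4.59, 4.90 and 4.79 at 3d and 5.69, 5.84 and 5.99 at 30d (1.08 ± 0.17, limma adjusted p = 0.00338), and eIF4E3, needed in the male germ line, rose by 0.98 with an SE of 0.19. Cytosolic ribosomal protein genes were stable by comparison, with 4 higher and 5 lower of 35 and a median of -0.08, where 30.7% of genes of like level fell. Relative to genes of like level the median was 0.08, so its sign turned, and 19 rose when arrays were centred and 3d replicate 1 was left out. The 4 that rose as deposited, RpL10Aa, RpS10a, RpS19b and RpS5b, are second copies. Their counts were 5 higher and 5 lower without 3d replicate 1, 3 and 6 without 3d replicate 2, 2 and 1 when either 3d replicate 3 or 30d replicate 1 was left out, and 1 and 1 for either of the remaining 30d arrays.

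Of 29 proteasome subunits 9 fell (31%) and none rose (median -0.34), beside 24.6% of like genes that fell, and 6 fell when centred. The count as deposited ran to 21 without 3d replicate 1 and was 6, 2, 1, 1 and 1 without 3d replicates 2 and 3 and 30d replicates 1, 2 and 3. Rpt4, a subunit of the regulatory base, read 7.39, 7.52 and 7.61 at 3d and 6.73, 6.88 and 6.99 at 30d (-0.64 ± 0.14, limma adjusted p = 0.00877). Of 14 second copies marked by T or R in the symbol 5 rose and none fell, beside 24.9% of like genes that rose, and 10 of the 14 were dim. Only 1 was higher when centred, with a median against like genes of 0.14. The rises as deposited had counts of 7, 6, 2, 2, 2 and 1 without 3d replicates 1, 2 and 3 and 30d replicates 1, 2 and 3. Endoplasmic reticulum folding and stress genes fell in 15 of 32 cases and rose in 1, beside 25.1% of like genes that fell, and 11 fell when centred. After 3d replicate 1 was removed, 22 fell, and without 3d replicate 3 and 30d replicates 1, 2 and 3 it was 9, 6, 7 and 5. TER94, the ATPase that extracts misfolded proteins, fell from 8.76, 8.63 and 9.06 to 7.88, 8.25 and 8.16 (-0.72 ± 0.15), and PEK, the kinase that slows translation under folding stress, fell by 0.70 with an SE of 0.18.

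The vacuolar ATPase, which acidifies synaptic vesicles and lysosomes, was lower in its first copies. Of 13 first copies 11 fell and none rose (median -0.67), beside 35.1% of like genes that fell, and 10 fell when centred. Without 3d replicate 1, 12 fell. Vha36-1 read 9.30, 8.89 and 9.03 at 3d and 8.08, 7.97 and 7.90 at 30d (-1.09 ± 0.14, limma adjusted p = 0.00185), and Vha100-1, the copy of subunit a used at synapses, on a probe set that may be shared, read 9.89, 9.85 and 10.25 against 9.34, 9.22 and 9.19. Of 15 further copies 6 rose and 1 fell (median 0.57), beside 25% of like genes that rose, and 11 of the 15 were below the 40th percentile at both ages. Centred within bins 1 rose and 1 fell, and the median against like genes was 0.16. The rise was 8, 4, 1, 2, 2 and 2 genes without 3d replicates 1, 2 and 3 and 30d replicates 1, 2 and 3. Of these, Vha14-2 rose from 6.66, 7.12 and 6.46 to 7.66, 7.76 and 7.84 (1.01 ± 0.18). The subsets by copy of the vacuolar ATPase, the proteasome and the translation factors were drawn after values had been seen.

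Of 22 genes for transmitter synthesis and transport 11 fell and 1 rose, beside 24.9% of like genes that fell, 9 fell against like genes (median -0.36), and 13 fell without 3d replicate 1. Beside e and speck, described above, Hdc, which makes histamine, the photoreceptor transmitter, read 7.03, 7.20 and 7.63 at 3d and 6.23, 6.35 and 6.11 at 30d (-1.06 ± 0.18, limma adjusted p = 0.00385). SerT, the serotonin transporter, read 6.39, 6.06 and 6.45 against 5.24, 5.34 and 5.09 (-1.07 ± 0.17, limma adjusted p = 0.00333). Ages did not overlap in either. The one that rose, Tdc1, a tyrosine decarboxylase used mainly outside the brain, was dim at 2.79, 4.44 and 4.10 against 5.52, 5.0 and 4.99, and was not called when centred or without 30d replicate 1 or 3. The nitric oxide receptor subunit Gycalpha99B fell as given above.

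Among genes of synaptic vesicles and the active zone, 15 of 31 fell and 3 rose as deposited (median -0.34), with 30.9% of genes of like level falling, and centred within bins 8 fell and 2 rose. With 3d replicate 1 left out, 19 fell, and without 30d replicates 2 and 3, 9 fell. Only 1 gene rose without 3d replicate 3 or any 30d replicate. Rop, the fly Sec1/Munc18 protein needed for vesicle fusion, read 7.77, 8.32 and 8.55 at 3d and 6.93, 7.22 and 7.07 at 30d (-1.14 ± 0.20, limma adjusted p = 0.00421). AP-2alpha, the partner of AP-2mu in clathrin-mediated vesicle retrieval, read 10.48, 10.24 and 10.32 against 9.49, 9.50 and 9.43 (-0.87 ± 0.10, limma adjusted p = 0.00154). The fusion cofactor alphaSnap fell by 0.87 with an SE of 0.11 and the vesicle protein Syngr by 0.80 with an SE of 0.10. Dap160, an endocytic scaffold, rose from 5.06, 5.56 and 4.72 to 6.37, 6.0 and 6.11 (1.05 ± 0.22, limma adjusted p = 0.00778).

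Receptor and channel families held members that moved either way. Of 9 nicotinic acetylcholine receptor subunits 3 fell (33.3%) and 1 rose (11.1%), beside 25.5% and 17.2% of like genes. Among them nAChRbeta1 read 11.58, 11.21 and 11.32 at 3d and 10.82, 10.64 and 10.54 at 30d (-0.70 ± 0.12, limma adjusted p = 0.00378), and nAChRbeta2 fell by 0.57 with an SE of 0.11. The group's median was 0.09 and changed sign with the scaling. When 3d replicate 1 was omitted, 3 fell and 2 rose, and none rose without any other array. Glutamate and GABA receptor genes fell in 5 of 21 cases and rose in 4, beside 21.2% and 19.8% of like genes. Amine and muscarinic receptor genes fell in 2 of 18 cases and rose in 1, beside 18.3% and 20.8%. Neither list held a rise when any 30d replicate was left out. The glutamate receptor subunit GluRIA fell by 0.92 with an SE of 0.21, and mAChR-B, a muscarinic receptor, read 7.83, 7.84 and 8.0 at 3d and 7.18, 7.12 and 7.19 at 30d. Of 38 ion channel genes 9 fell (23.7%) and 2 rose, beside 24.1% of like genes that fell, and 7 fell and 6 rose when centred. As deposited 16 fell without 3d replicate 1, and 5 fell without 30d replicate 2 or 3. Both accessory proteins of the sodium leak channel were among the falls. Of these, unc79 read 10.44, 10.06 and 10.28 against 9.43, 9.27 and 9.33 (-0.91 ± 0.12, limma adjusted p = 0.00211), and unc80 read 8.57, 7.86 and 8.14 against 7.21, 6.96 and 7.09 (-1.10 ± 0.18, limma adjusted p = 0.00376). The gene qvr (sleepless), which raises Shaker potassium current and is needed for normal sleep, fell from 10.03, 9.92 and 10.02 to 9.30, 9.22 and 9.24 (-0.73 ± 0.10, limma adjusted p = 0.00231).

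Of 39 neuropeptide genes 7 rose and 7 fell, beside 18.1% and 24.6% of like genes, and the median changed sign with the scaling. Counts were 9 and 13 without 3d replicate 1, 8 and 8 without 3d replicate 2, 4 and 6 when either 3d replicate 3 or 30d replicate 1 was left out, 2 and 5 without 30d replicate 2, and 2 and 4 without 30d replicate 3. The falls were led by a pair of peptides. Ilp5, an insulin-like peptide of the median neurosecretory cells, read 8.48, 8.48 and 8.68 at 3d and 7.15, 7.48 and 7.23 at 30d (-1.26 ± 0.14, limma adjusted p = 0.00119). SIFa, made by a few large neurons and linked to courtship, sleep and feeding, read 7.77, 7.51 and 7.88 against 6.59, 6.48 and 6.51 (-1.19 ± 0.15, limma adjusted p = 0.00173). AstCC, an allatostatin C paralogue, rose from 7.61, 7.45 and 7.48 to 8.02, 8.22 and 8.31 (0.67 ± 0.13). Of the insulin pathway downstream, the receptor InR rose by 0.61 with an SE of 0.18, the transcription factor foxo read 7.65, 7.96 and 7.79 against 8.36, 8.41 and 8.42 (0.59 ± 0.13, limma adjusted p = 0.00849), and the kinase Akt rose by 0.53 with an SE of 0.10 on a probe set that may be shared. In contrast Sdr, a secreted decoy of the insulin receptor, fell by 0.91 with an SE of 0.17. The whole list of 20 insulin and TOR genes had 3 higher and 6 lower, beside 16.7% and 25.1% of like genes, and 6 and 8 without 3d replicate 1, while without 30d replicates 1, 2 and 3, 2 rose and 4 fell.

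Of 11 activity-linked genes 3 rose (27.3%) and none fell, beside 17.6% of like genes that rose, and 5 were higher when centred. On the arrays other than 3d replicate 1, 5 rose and 2 fell, and the median as deposited was 0.04 instead of 0.25. Learning and memory signalling genes rose in 3 of 20 cases and fell in 2, beside 15.1% and 27.6% of like genes, and their median, 0.06, changed sign with the scaling. Of these 20, 7 rose and 5 fell without 3d replicate 1, and 1 rose without 30d replicate 2 or 3. The number that fell was 1 without 3d replicate 2, and limma called none lower without 3d replicate 3 or any 30d replicate. Arc1, which carries its own messenger RNA between cells in capsids, read 8.74, 9.52 and 9.41 at 3d and 10.11, 10.11 and 10.26 at 30d (0.94 ± 0.18, limma adjusted p = 0.00601), beside Arc2 as given above. CrebB, the cyclic AMP response factor of long-term memory, read 6.28, 6.38 and 6.14 against 7.10, 6.97 and 7.34 (0.87 ± 0.15, limma adjusted p = 0.00446). For both genes every 30d array lay above every 3d array. Summed signal of the 11 genes was 2476 to 3046 at 3d and 3549 to 3725 at 30d.

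Of 18 circadian clock genes 9 fell and 2 rose, beside 26.2% of like genes that fell, with 5 and 3 when centred (median against like genes -0.29). After 3d replicate 1 was removed, 10 fell, and without 30d replicates 1, 2 and 3, 5, 5 and 3 fell. Only 1 rose without 30d replicate 2 or 3. The positive factor Clk rose from 7.22, 7.72 and 7.58 to 8.30, 8.31 and 8.36 (0.82 ± 0.15, limma adjusted p = 0.00506), on a probe set that may be shared. Its target and repressor per fell from 6.86, 7.39 and 6.63 to 5.93, 5.90 and 5.66 (-1.13 ± 0.20, limma adjusted p = 0.00458), and the light receptor cry fell by 0.98 with an SE of 0.20. In flies Clk and per RNA peak at different times of day. The labels do not give the time of day at which brains were dissected, so its part in these differences was not tested.

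Transcription factors best known from neural precursors were higher in the 30d arrays. Of 46 genes 15 rose and 2 fell (median 0.33), and centred within bins 18 rose and 1 fell, with 19.8% of genes of like level rising as deposited. Without 3d replicate 1, 26 rose and 4 fell, and without 3d replicate 3 and 30d replicates 1, 2 and 3 the number that rose was 9, 7, 9 and 6. On 3d replicate 1 the group lay 0.24 above the 3d mean when centred, the side of the 30d arrays. The proneural gene ac (achaete) read 4.84, 5.57 and 5.17 at 3d and 6.31, 6.19 and 6.39 at 30d (1.10 ± 0.20, limma adjusted p = 0.00457). The gene ase (asense), which marks neuroblasts, read 5.11, 5.03 and 5.10 against 5.96, 6.06 and 6.12 (0.97 ± 0.15, limma adjusted p = 0.00327), and esg, a Snail-family factor, rose by 0.81 with an SE of 0.15. All 3 were dim at 3d. One gene went clearly the other way: erm, which restricts intermediate neural progenitors, fell from 7.59, 6.71 and 7.16 to 5.91, 5.90 and 5.89 (-1.25 ± 0.21, limma adjusted p = 0.00376).

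Cell division genes gave no comparable picture once level was taken into account. Of 42 genes of mitosis and DNA replication 10 rose (23.8%) and 2 fell (4.76%), beside 24.8% and 12.3% of like genes, and the median against like genes was 0.02. With 3d replicate 1 left out, 21 rose, and without 3d replicates 2 and 3 and 30d replicates 1, 2 and 3, 7, 4, 4, 4 and 5 rose. Of 29 ecdysone response genes 8 rose and 3 fell (median 0.29), beside 20.4% of like genes that rose, and 10 and 1 when centred. When 3d replicate 1 was omitted, 15 rose and 4 fell, and without 3d replicate 3 and 30d replicates 1, 2 and 3 the number that rose was 5, 3, 1 and 2. Hr39, a nuclear receptor, read 7.45, 8.06 and 7.88 at 3d and 8.34, 8.47 and 8.49 at 30d (0.64 ± 0.16) on a probe set that may be shared, and shd, which makes active 20-hydroxyecdysone, rose by 0.68 with an SE of 0.16.

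Glial genes were lower on balance. Of 33 markers 14 fell and 3 rose (median -0.36), against 29.7% of like genes that fell, and 11 and 2 when centred. On the arrays other than 3d replicate 1, 20 fell and 4 rose. Their summed signal was 19808 to 22648 at 3d and 14928 to 16375 at 30d, and 2 of the 33 were dim at both ages. The gene bdl (borderless), a cell adhesion molecule, read 9.65, 8.75 and 9.09 at 3d and 7.87, 8.10 and 7.93 at 30d (-1.20 ± 0.20, limma adjusted p = 0.00399), next to the glial enzyme e. Mdr65, the drug pump of the blood-brain barrier, fell, at 8.66, 8.59 and 8.81 against 7.95, 8.07 and 7.42 (-0.87 ± 0.17, limma adjusted p = 0.0064). Septate junction genes as a set changed little, with 2 higher and 3 lower of 24, beside 16.8% and 26.2% of like genes. Centred within bins 5 were higher and 2 lower. Gli (gliotactin) rose by 0.63 with an SE of 0.18 on a probe set that may be shared. After 3d replicate 1 was removed, 6 rose and 5 fell. No gene of the set, Gli included, was called higher when any 30d replicate was left out. In a separate list of 70 solute carriers and transporters 18 fell and 9 rose, beside 15.5% and 23.7% of like genes. Centred within bins 20 fell and 5 rose. Without 3d replicate 1, 22 fell and 13 rose. Without 3d replicate 3 and 30d replicates 1, 2 and 3, 12, 10, 12 and 10 fell and 3, 4, 4 and 2 rose. A pair of transporters in neither the glial nor the septate junction list fell. The potassium chloride cotransporter kcc went from 11.68, 11.04 and 11.05 to 10.18, 10.10 and 10.19 (-1.10 ± 0.16, limma adjusted p = 0.00271). The neurotransmitter transporter relative ine, on a probe set that may be shared, went from 8.68, 8.17 and 8.36 to 7.28, 7.21 and 7.17 (-1.19 ± 0.15).

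The extracellular sheath was lower in 7 of 16 basement membrane genes and higher in 3, beside 23% and 19.5% of like genes, with 6 and 3 when centred and 8 and 4 without 3d replicate 1. The collagen IV chain vkg read 9.01, 8.70 and 9.09 at 3d and 7.37, 7.30 and 7.16 at 30d (limma adjusted p = 0.00065). LanA, the laminin alpha chain, read 6.15, 6.17 and 6.46 against 5.11, 5.18 and 4.99 (-1.17 ± 0.16, limma adjusted p = 0.00233), and SPARC, which binds collagen IV, read 8.48, 8.23 and 8.55 against 7.57, 7.72 and 7.66 (-0.77 ± 0.13). The perlecan gene trol rose by 0.95 with an SE of 0.17, but its probe sets were called in opposite directions. Several of these genes are also made by haemocytes and fat body. Of 19 haemocyte markers 8 fell and 2 rose, beside 20.8% of like genes that fell. Those that fell included the crystal cell prophenoloxidases PPO1 (-0.91 ± 0.19) and PPO2, which read 6.27, 6.33 and 6.47 against 5.02, 4.96 and 5.12 (-1.32 ± 0.15, limma adjusted p = 0.00126). The summed signal of that list was 5940 to 6540 at 3d and 5173 to 5324 at 30d, 3 of its 19 genes were dim, and 4 of its genes that fell, vkg, Pxn, Col4a1 and Ppn, are also in the sheath list. Without 3d replicate 3 and each 30d replicate, 5 haemocyte markers fell, and 5 rose and 8 fell without 3d replicate 1. Head fat body markers had 3 higher and 4 lower of 25, beside 21.4% of like genes that fell, and 5 higher and 9 lower without 3d replicate 1. Of these 25, 2 fell without 3d replicate 3 or 30d replicate 3, and 1 rose without 30d replicate 3. Their part in the sheath result was not tested.

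Markers of tissue next to the brain were also described, and only the retina list was lower on balance. Of 39 phototransduction and retina genes 15 fell and 1 rose (median -0.29), beside 25.8% of like genes that fell, and 11 and 1 when centred. Several rhodopsin genes, ninaE among them, were listed without a match and so not counted, and the same held for norpA and ninaC. The counts and summed signal of this list therefore cover photoreceptor genes only in part. Without 3d replicate 1, 22 fell and 6 rose, and without 3d replicate 3 and 30d replicates 1 and 2, 9, 10 and 9 fell. The summed signal was 25856 to 27677 at 3d and 20743 to 22273 at 30d, and 4 of the 39 were dim. The gene boss, a ligand in photoreceptor specification, read 8.93, 8.92 and 8.97 at 3d and 7.85, 7.91 and 7.90 at 30d (-1.05 ± 0.11, limma adjusted p = 0.00109), and the photoreceptor adhesion protein chp read 9.75, 9.53 and 9.80 against 8.73, 8.81 and 8.49 (-1.02 ± 0.13). Muscle markers rose in 9 of 28 cases and fell in 4, beside 19.8% and 23.3% of like genes, and the median, 0.15, changed sign with the scaling. With 3d replicate 1 left out, 13 rose, and without 30d replicates 2 and 3, 3 rose. Summed muscle signal was 8086 to 10239 at 3d and 9354 to 9539 at 30d, so the groups overlapped. Whether retina, muscle or fat body carried over in dissection differed between the ages was not tested beyond these values.

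Of 19 antimicrobial peptide genes 6 rose and 2 fell, where 26.3% of like genes rose and 15.3% fell. Centred within bins 3 rose and none fell. Among the listed genes without a match, and so not counted, were AttA, AttB, AttC, CecA1, CecA2, CecC, DptA, Dro, BomS1 and BomS3. When 3d replicate 1 was omitted, 11 rose, and without 30d replicates 2 and 3, 3 and 4 rose. Mtk (metchnikowin) read 6.90, 5.90 and 5.65 at 3d and 6.61, 7.13 and 8.14 at 30d, so the ages overlapped through 3d replicate 1 (1.14 ± 0.39, limma adjusted p = 0.0429), and the call was lost when centred. CecB, a cecropin, read 6.35, 6.71 and 6.20 against 7.12, 7.11 and 7.27 (0.75 ± 0.16, limma adjusted p = 0.00859), and the Toll target BomS5 rose by 0.71 with an SE of 0.16. BomBc2 and BomT3 of the same family fell by 0.67 and 0.44 as deposited. Both of these calls were lost when centred, without 3d replicate 3 and without each 30d replicate. Among 64 genes of recognition and signalling 19 rose and 8 fell as deposited, beside 24.7% and 14.7% of like genes, and 10 rose and 14 fell when centred. On the arrays other than 3d replicate 1, 28 rose and 13 fell, and without 3d replicate 3 and each 30d replicate the number that rose was 7, 4, 4 and 4. The JAK/STAT receptor gene dome fell from 6.35, 6.19 and 6.23 to 5.20, 5.24 and 5.39 (-0.98 ± 0.15, limma adjusted p = 0.00316), opposite to TotC, a known target of that pathway.

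Detoxification families held strong changes in single genes. Of 85 cytochrome P450 genes 28 rose and 11 fell, or 32.9% and 12.9%, beside 26.2% and 11.2% of genes of like level, and 14 and 13 when centred. Without 3d replicate 3 and 30d replicates 1, 2 and 3, 16, 16, 12 and 11 rose and 7, 8, 7 and 6 fell, and 33 rose and 15 fell without 3d replicate 1. Cyp6d5 fell from 9.48, 9.44 and 9.60 to 8.44, 8.14 and 8.13 (-1.27 ± 0.13, limma adjusted p = 0.000965), Cyp4ae1 from 5.97, 6.0 and 5.99 to 4.30, 4.22 and 4.84 (-1.53 ± 0.20, limma adjusted p = 0.00188), and Cyp305a1 by 1.26 with an SE of 0.20. Upward, Cyp309a2 went from 5.67, 6.05 and 5.60 to 6.51, 6.85 and 7.08 (1.04 ± 0.19, limma adjusted p = 0.00506). Glutathione S-transferases split within a class: GstD4 rose from 7.77, 7.73 and 7.44 to 8.38, 8.53 and 8.58 (0.85 ± 0.14), and GstD3 fell from 7.67, 8.47 and 8.61 to 7.30, 7.36 and 7.54 (-0.85 ± 0.22). Catalase was among the deepest falls of any enzyme, at 8.70, 8.76 and 9.04 against 7.50, 7.18 and 7.12 (limma adjusted p = 0.000902). Of 19 antioxidant genes 4 fell (21.1%) and none rose, beside 25.3% of like genes that fell, and 9 fell and 4 rose without 3d replicate 1.

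In families of the body surface and the peripheral senses more genes rose than fell, mostly at low signal. Of 113 cuticle protein genes 50 rose and 1 fell (median 0.57), but 68 lay below the 40th percentile at both ages, 27% of like genes rose, and centred within bins 17 rose and 1 fell. Of 49 odorant-binding proteins 26 rose and 2 fell, and 11 and 5 when centred, and of 166 odorant, gustatory and ionotropic receptors 76 rose and 2 fell, with 29 and 3 when centred. Of genes of like level 26.7% and 26.1% rose. Summed signal of the odorant-binding proteins was nevertheless lower at 30d, with 6254 to 7400 at 3d and 5877 to 6151 at 30d. For cuticle proteins it was 5689 to 7420 and 8842 to 9157, and for the receptors 5207 to 6371 and 8527 to 8882. After 3d replicate 1 was removed, the numbers that rose in these 3 families were 77, 28 and 91. Without 3d replicate 3 they were 20, 17 and 41, and without 30d replicates 1, 2 and 3 they were 15, 12 and 14 for cuticle, 14, 10 and 9 for odorant-binding proteins and 34, 29 and 33 for receptors. A pair of odorant-binding proteins moved in opposite directions. Obp19d read 7.31, 7.22 and 6.80 at 3d and 8.08, 8.21 and 8.24 at 30d (1.07 ± 0.16, limma adjusted p = 0.00293, shared probe set), while Obp44a, which is abundant in brain, fell from 11.94, 11.68 and 11.62 to 11.06, 10.80 and 11.00 (-0.79 ± 0.11, limma adjusted p = 0.00241). The odorant receptors Or63a and Or43b fell by 0.89 and 0.69, the only calls in that direction among 57 odorant receptor genes with all 6 arrays.

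Of 29 sex-biased transcripts 12 rose and none fell (median 0.36), and 5 rose when centred, with 9 of the 29 dim at both ages and 24% of like genes rising. Without 3d replicate 3 and 30d replicates 1, 2 and 3, 8, 7, 5 and 5 rose, and 17 rose without 3d replicate 1. The accessory gland peptide gene Acp26Aa read 6.01, 6.18 and 5.94 at 3d and 7.07, 7.07 and 7.02 at 30d (1.01 ± 0.14, limma adjusted p = 0.00245). Of 22 small RNA pathway genes 6 rose (27.3%) and 3 fell, beside 24.8% and 17.1% of like genes, and 5 rose and 3 fell when centred. Their median was -0.07 against like genes, and its sign as deposited changed with the scaling. Without 3d replicate 1, 7 rose and 5 fell, 3 rose without 30d replicate 2, and 1 fell without 30d replicate 1. In the piRNA pathway, which silences transposons, AGO3 read 6.57, 6.39 and 6.29 against 7.35, 7.37 and 7.34 (0.93 ± 0.14, limma adjusted p = 0.00293), and the RNA helicase vas (vasa) read 7.26, 7.28 and 7.08 against 7.97, 7.96 and 7.99 (0.77 ± 0.13, limma adjusted p = 0.00376). The mitochondrial piRNA factor Gasz went the other way, from 7.71, 7.74 and 7.97 to 6.91, 7.05 and 6.81 (-0.88 ± 0.14). The summed signal of the sex-biased list was 6581 to 7918 at 3d and 6312 to 7883 at 30d, and any difference in sex between the groups was not tested, since the labels do not give it.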

How the data were processed

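Brain RNA of 3 arrays at 3 days and 3 at 30 days was compared. The values are the intensity of each probe set in the table the authors deposited. GCRMA and MAS5 are both named in the submitters' processing notes, without saying which made that table. Its equal trimmed means show a common scaling of every array. The authors' intensity values were used as deposited, as log2(signal + 1), where the added 1 shrinks differences of dim genes. Rises of dim genes as deposited were nevertheless not conservative. In the dimmest signal bin the median difference was 0.55, and centring arrays within bins cut the share called higher from 18.7% to 0.917%. No read depth exists for arrays, and their number limits the precision.

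Of 18952 probe sets, 183 were controls, 13647 had 1 gene symbol in the platform annotation, 402 had several and 4720 were unnamed. limma 3.58.1 in R 4.3.3 (lmFit, eBayes with trend) was fitted to the 6 arrays with no filter, and p-values were adjusted by Benjamini-Hochberg over all probe sets at 0.05. A gene was represented by its brightest probe set. A second fit centred each array within 10 signal bins. Python 3.11.15 with pandas 2.3.3, numpy 2.4.6 and matplotlib 3.10.9 did the rest, and the fit was also run on simulated data. Unlike these arrays, the simulated ones had equal spread at both ages, no outlying array and no shift with level.

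The gene groups and subsets were chosen with earlier results of these data known. Of the symbols listed, 308 did not match, 104 matched through a synonym and 12 wrong matches were removed. Named genes are the 20 largest rises and falls called in both fits, without overlap of arrays and with the higher mean above the 60th percentile of all values, plus up to 4 called members of each group in each direction, or the smallest p where none was called. The text names a part of these. Genes named outside this rule (the neuronal markers, COX4, UQCR-11, ATPsynbeta, eIF4E1, Col4a1, Ppn) were chosen after their values were seen. Alternatives were other scalings, filters, pseudocount, array weights, all 9 arrays, a replicate block and leaving out each array. The 60d arrays entered only that alternative.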

Additional observations from a re-analysis of the deposited data

How the results depend on the processing

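The 5307 probe sets called became 2644 with a filter at the 60th percentile. The 2823 genes higher became 1791 with quantile normalization, 1704 with median centring, 1600 with cyclic loess, 1609 and 1606 with arrays centred within 10 and 20 bins, 1689 and 946 with filters at the 40th and 60th percentile, and the 1949 lower stayed within 1.5 times of that count under each of these. Leaving out 1 array gave 2108 to 7996 probe sets, 1014 to 3988 genes higher and 885 to 3150 lower. With arrays also centred, chosen after seeing the data, the counts without 3d replicates 1, 2 and 3 and 30d replicates 1, 2 and 3 were 6558, 3455, 1892, 1403, 1202 and 1133 probe sets, 2892, 1462, 811, 535, 451 and 417 genes higher, and 3024, 1695, 938, 760, 661 and 634 lower. Deviations from the age mean correlated at -0.106, -0.040 and -0.191 between same-numbered arrays over 7416 genes. Between arrays of different number they correlated at -0.030 to 0.129. Deviations within an age depend on each other and 3d replicate 1 stood apart, so these values cannot decide whether the numbers pair the arrays. A replicate block called 4971 probe sets, 2710 genes higher and 1740 lower, and with arrays centred 2766 probe sets and 1208 genes higher. No gene named in the text by the stated rule had its difference change sign under any alternative run that kept it. Calls were less stable than signs. Among 127 named genes checked, 15, 16 and 17 lost their call without 30d replicates 1, 2 and 3, and 10 without 3d replicate 3. With arrays also centred these were 32, 36, 39 and 21. The cause of these moves was not tested. With 4 residual degrees of freedom and no detection calls in the table, small differences of dim genes could not be resolved.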
